A study of Mus musculus with 9 samples.

Results

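The genes described here encode 9 cell surface receptors known from neuroblastoma: the receptor tyrosine kinases Alk, Ret, Kit, Pdgfra, Pdgfrb and Igf1r, the neurotrophin receptor kinases Ntrk2 (TrkB) and Ntrk3 (TrkC), and the p75 neurotrophin receptor Ngfr. They were chosen by symbol from a table of 54429 gene symbols, and 9 of 9 symbols were found there. After a filter on low counts that left 15931 genes, 6 of the 9 could be tested (Ntrk2, Ngfr, Kit, Pdgfra, Pdgfrb and Igf1r), while Alk, Ret and Ntrk3 had too few counts and are given by their counts.

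The RNA came from whole tumors of NB9464 cells, a mouse neuroblastoma line with MYCN amplification, grown under the skin of wild-type C57BL/6 mice aged 4 to 6 weeks at injection. Treatment started at a tumor volume of 250 mm3, and the series text lists 4 doses from day 28 to day 37 without naming the agent. The 3 groups had 3 tumors each. The first group received vehicle. The second, R788 + anti-PDL1 and called drug-treated from here on, received R788 (fostamatinib), an oral inhibitor of the kinase Syk, at 50 mg/kg with an antibody against the checkpoint ligand PD-L1, and the third, Rad + R788 + anti-PDL1 and called irradiated, received the same agents and 10 Gy of radiation. All tumors share 1 cell line in an intact host, so each library mixes tumor cells with stroma, vessels and immune cells. In such bulk RNA, fewer cells of a type and less RNA per cell cannot be told apart. No group received radiation, R788 or the antibody alone in the data used here, and no source states more about the tumors of a group than that they are separate samples. The p-values therefore measure the spread between these 9 samples.

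Receptor tyrosine kinases bind a ligand outside the cell, pair up and phosphorylate each other, and pass the signal through adaptors to the RAS-MAPK and PI3K pathways. In neuroblastoma ALK is a known target of activating mutation, TrkB with its ligand BDNF is linked to aggressive tumors, and TrkC and RET belong to the neural crest and sympathetic lineage from which the tumor arises. The PDGF receptors are typical of fibroblasts and pericytes, KIT of mast cells and progenitors, and IGF1R is found on most cell types. The values below are RNA levels, which do not measure phosphorylation or activity of the receptors.

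Library totals ran from 18276683 to 23397886 estimated counts. Levels are given as CPM, counts divided by a library size that TMM scaling had corrected for composition, and 3 counts, the limit that a count of 0 allows, correspond to 0.115 to 0.221 CPM depending on the library. Such limits cover counting error only. Irradiated tumor 1 stood apart from the others. Its log2 CPM correlated with those of the other libraries at r = 0.86 to 0.91 across genes, against 0.94 to 0.98 among the other 8, and its TMM factor was 0.743 against 0.975 to 1.12. Results that rest on this library are given with and without it.

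Across the 9 genes the levels in vehicle tumors covered more than 3 orders of magnitude when set per kilobase of merged exons (CPM per kb). Pdgfrb was highest with 9.67 ± 0.974 CPM per kb (SD, n = 3), and Pdgfra followed with 4.75 ± 1.42. Ngfr had 2.14 ± 0.865 and Igf1r 1.94 ± 0.597, which did not differ beyond their spread, and with the longest transcript as the length the 2 changed places (2.14 ± 0.865 for Ngfr, 2.85 ± 0.878 for Igf1r). Kit came next with 0.197 ± 0.133. The lowest positions were held by Ret with 0.00816 ± 0.0141, Alk with 0.0043 ± 0.00379, Ntrk2 with 0.00381 ± 0.00437 and Ntrk3 with 0.00244 ± 0.00423, each with 4 counts or fewer in any vehicle library and not distinguishable from each other. The mesenchymal PDGF receptors thus led the order, and Ret, Alk, Ntrk2 and Ntrk3 ended it near the limit of detection. Pdgfrb and Pdgfra kept the first and second place in the drug-treated tumors (11 ± 3.65 and 7.05 ± 3.72 CPM per kb) and in the irradiated tumors (9.24 ± 2.67 and 4.07 ± 1.51).

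**Figure D1:**
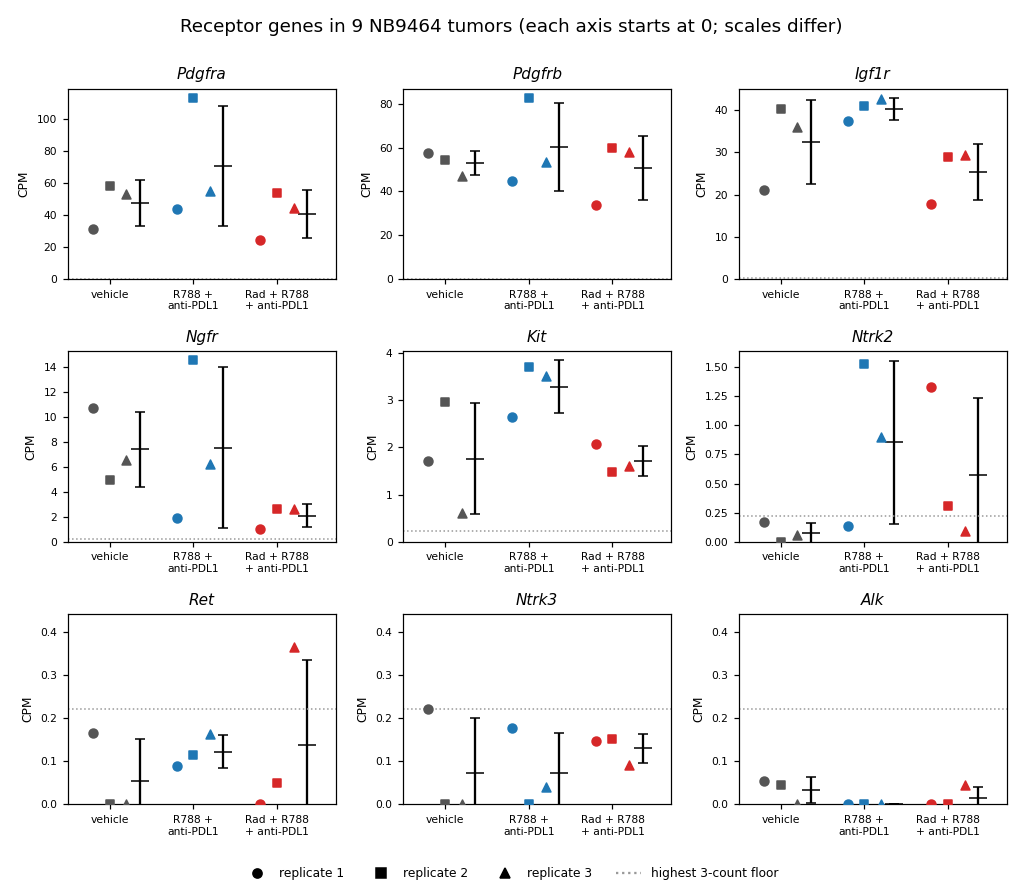
Level of each receptor gene (CPM, linear axes from 0, a different scale in each panel) in the 9 tumors by treatment group, with 1 symbol per replicate, the mean and SD as a bar at the right of each group, and a dotted line at 0.221 CPM, the highest level that 3 counts stand for in any library. Alk and Ntrk3 stay at or under the dotted line in all 9 tumors and Ret in 8 of 9, while drug-treated tumor 2 is the highest of all 9 for Pdgfra, Pdgfrb, Ngfr, Kit and Ntrk2.

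Alk, the receptor of the ALKAL peptides and the kinase most often mutated in familial neuroblastoma, was at the limit of detection (chromosome 17: 71868972-72604627, minus strand, mm10). The vehicle libraries held 1, 1 and 0 counts, the drug-treated libraries 0, 0 and 0, and the irradiated libraries 0, 0 and 1. With 3 counts in 9 libraries no difference between groups was detectable at this depth.

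Ret, the signaling receptor for the GDNF family (chromosome 6: 118151745-118197718, minus strand), had 3, 0 and 0 counts in vehicle tumors, 2, 3 and 4 in drug-treated tumors, and 0, 1 and 8 in irradiated tumors. The counts summed over groups gave a ratio of 2.40 for drug-treated tumors to vehicle with a 95% counting interval of 0.599 to 13.8, and of 3.19 (0.796 to 18.3) for irradiated tumors to vehicle. Both intervals include equality, and of the 9 counts in the irradiated tumors 8 came from tumor 3. Ntrk3, the receptor of neurotrophin-3 (chromosome 7: 78175959-78738012, minus strand), had 4, 0 and 0 counts in vehicle tumors, 4, 0 and 1 in drug-treated tumors and 2, 3 and 2 in irradiated tumors. The groups overlapped, and the ratio of irradiated tumors to vehicle was 1.86 (0.473 to 8.66).

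Several other genes of the sympathetic lineage were also at or near 0. Th, the first enzyme of catecholamine synthesis, had 0 counts in all 9 libraries. Dbh did not exceed 1 count, nor Phox2a and Chga 3 counts. Hand2, which is also a neural crest factor, ran from 325 to 867 CPM and Mycn from 93.3 to 250 CPM. Ddc, the decarboxylase of catecholamine and serotonin synthesis, was present in all 9 with 3.44 to 19.7 CPM, as were the transcription factor genes Gata2 with 1.26 to 6.99 and Gata3 with 0.180 to 11.4 CPM. Isl1, a transcription factor of neuron development, had 0 counts in all 3 vehicle tumors. It had 80, 48 and 63 counts in drug-treated tumors and 14, 27 and 21 in irradiated tumors. Isl1 passed the low-count filter only through the treated tumors, so no test is given for it. Of the 15 noradrenergic neuroblast markers looked at, 5 to 8 were above the 3-count level in any 1 library. The part of these markers in the low counts of Alk, Ret and Ntrk3 was not tested.

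Ntrk2, the receptor kinase for BDNF and neurotrophin-4 (chromosome 13: 58806569-59133970, plus strand), was the tested member with the fewest counts and the largest fold differences against vehicle. It passed the low-count filter only through the treated tumors. Vehicle tumors had 3, 0 and 1 counts (0.166, 0 and 0.0548 CPM). Drug-treated tumors had 3, 40 and 22 counts (0.132, 1.53 and 0.902 CPM), so that tumors 2 and 3 were above all vehicle tumors and tumor 1 was within their range. The irradiated tumors had 18, 6 and 2 counts (1.33, 0.304 and 0.0913 CPM) and overlapped both other groups. Counts summed over the group were 13.0 times those of vehicle in drug-treated tumors (95% counting interval 4.84 to 49.2) and 6.91 times (2.40 to 27.2) in irradiated tumors. These intervals leave out the spread between tumors. With that spread, edgeR gave a log2 fold change of 3.50 ± 1.34 (SE, unadjusted p = 0.0268, adjusted p = 0.342) for drug-treated tumors against vehicle and 2.87 ± 1.37 (adjusted p = 0.391) for irradiated tumors against vehicle. Neither passed the test. The first value was 2.78 without drug-treated tumor 2 and 4.81 without vehicle tumor 1, and the second was 1.43 without irradiated tumor 1. Between the treated groups the log2 fold change was -0.63 ± 1.11 (adjusted p = 0.770), and it was 0.088 without drug-treated tumor 2 and -2.10 without irradiated tumor 1.

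Krt5, a keratin of basal epithelium and the keratinocyte marker with most counts, varied together with Ntrk2 in part. Krt5 had 7.51, 3.05 and 4.66 CPM in vehicle tumors, 1.90, 63.1 and 22.7 in drug-treated tumors, and 75.0, 54.1 and 46.5 in irradiated tumors. The summed level of the 6 keratinocyte markers ran from 7.95 to 8.71 CPM in vehicle tumors, from 2.16 to 64.2 in drug-treated tumors and from 47.4 to 76.0 in irradiated tumors, with Krt1 at 0 in 8 of 9 libraries and 2 or 3 of 6 markers above the 3-count level. Krt5 made up most of this sum in the treated tumors, and the other basal markers did not follow it. Krt14, another basal keratin, had a mean of 1.47 CPM in vehicle, 0 in drug-treated and 0.034 in irradiated tumors, and Trp63, the transcription factor of basal epithelium, had 1.79, 0.681 and 0.809 CPM. Within each group the order of tumors was the same for Ntrk2 and Krt5, though all vehicle tumors had Ntrk2 at or under the 3-count level. The part of skin or epithelial RNA in the Ntrk2 counts was not tested.

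Ngfr, which binds all neurotrophins and is known from Schwann cells, neural crest cells and some stromal cells (chromosome 11: 95568818-95587735, minus strand), was lower in irradiated tumors without passing the test. Its levels were 10.7, 4.94 and 6.52 CPM in vehicle tumors and 1.90, 14.5 and 6.19 CPM in drug-treated tumors. In the irradiated tumors they were 1.03, 2.59 and 2.65 CPM, below all vehicle tumors, while irradiated tumors 2 and 3 were above drug-treated tumor 1. The log2 fold change against vehicle was -1.81 ± 0.69 (95% interval -3.37 to -0.25, unadjusted p = 0.0276 and adjusted p = 0.337 by edgeR), or 0.286 times the vehicle level. Against drug-treated tumors it was -1.84 ± 0.69 (adjusted p = 0.240), and -0.94 without drug-treated tumor 2, which held the highest value. Leaving out irradiated tumor 1 gave -1.47 against vehicle and -1.52 against drug-treated tumors. Drug-treated tumors and vehicle differed by 0.03 ± 0.66 with an interval from -1.46 to 1.52, and the spread among the 3 drug-treated tumors was 7.66-fold. Schwann cell markers summed to 117 to 196 CPM in vehicle, 79.4 to 97.5 in drug-treated tumors and 112 to 138 in irradiated tumors. Among them Sox10 had 4 counts or fewer, and Foxd3 and Cdh19 had 0, in all 9 libraries. The group ranges did not follow the order of the Ngfr groups. Within groups, the sums of vehicle tumors (196, 117 and 133 CPM) and drug-treated tumors (79.4, 97.5 and 83.7 CPM) had the same order as Ngfr. In irradiated tumors both were lowest in tumor 1 (112 CPM for the markers). The part of Schwann cells in the Ngfr level was not tested.

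Kit, the receptor of stem cell factor (chromosome 5: 75574916-75656722, plus strand), was present at a low level in all 9 tumors. Vehicle tumors had 1.71, 2.96 and 0.603 CPM, drug-treated tumors 2.65, 3.71 and 3.53, and irradiated tumors 2.07, 1.47 and 1.6. The drug-treated tumors were all above the irradiated ones, and overlapped vehicle through vehicle tumor 2. The log2 fold change was 0.90 ± 0.54 for drug-treated tumors against vehicle (95% interval -0.31 to 2.10, edgeR adjusted p = 0.600), -0.049 ± 0.54 for irradiated tumors against vehicle (adjusted p = 0.969) and -0.95 ± 0.54 between the treated groups (adjusted p = 0.356). The first value was 1.5 without vehicle tumor 2 and 0.49 without vehicle tumor 3. Kit varied 4.92-fold among the vehicle tumors and 1.4-fold within each treated group.

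Mast cell markers were highest in the same group as Kit. The 7 markers, among them the proteases Cpa3, Mcpt4 and Tpsb2, summed to 2.11 to 13.7 CPM in vehicle tumors, 53.1 to 81.3 in drug-treated tumors and 5.62 to 13.3 in irradiated tumors. All 7 were higher in every drug-treated tumor than in every vehicle and every irradiated tumor, where 30.1% and 27.4% of all genes did not overlap in the 2 comparisons. In both, 7 of 7 had an unadjusted p under 0.05 (11.7% and 18.4% of all genes), 0 of 7 were called by edgeR after adjustment (0.678% and 0.00628%) and 5 of 7 by DESeq2 (4.86% and 5.62%). The lowest counts were 0 for Ms4a2 and Fcer1a, 2 for Cma1 and 3 for Tpsb2. Markers this low outside the drug-treated group can pass the low-count filter through that group alone. These tests and the lack of overlap therefore add no separate support for a difference. Kit and the mast cell markers went apart in vehicle tumor 2, which had the highest Kit level of its group and the lowest mast cell sum of all 9 tumors. The part of mast cells in the Kit level was not tested.

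Pdgfra (chromosome 5: 75152292-75198215, plus strand) and Pdgfrb (chromosome 18: 61045150-61085061, plus strand) are the receptors for platelet-derived growth factors on mesenchymal cells. Pdgfra had 31.5, 58.2 and 53.2 CPM in vehicle tumors, 43.6, 113 and 55.2 in drug-treated tumors, and 24.2, 53.7 and 44.5 in irradiated tumors. The 3 groups overlapped, and the high mean of the drug-treated group (70.7 ± 37.3 CPM, n = 3) came from tumor 2. Against vehicle its log2 fold change was 0.57 ± 0.42 (edgeR adjusted p = 0.687) and 0.052 without that tumor. Irradiated tumors differed from vehicle by -0.22 ± 0.42 (adjusted p = 0.805) and from drug-treated tumors by -0.79 ± 0.42 (adjusted p = 0.325), which became -0.28 without drug-treated tumor 2. Counts at Pdgfra are uncertain in part, because 456 exon bases overlap the antisense gene Gm42802 and 166 overlap Gm42803, and the strandedness of the libraries is not given in the sources used here.

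Pdgfrb had similar group means. Its levels were 57.4, 54.5 and 47.0 CPM in vehicle tumors, 44.7, 82.8 and 53.4 in drug-treated tumors and 33.8, 60.0 and 58.1 in irradiated tumors. All groups overlapped. The log2 fold changes were 0.19 ± 0.29 for drug-treated tumors against vehicle (95% interval -0.46 to 0.84, edgeR adjusted p = 0.862), -0.064 ± 0.29 for irradiated tumors against vehicle (-0.71 to 0.59, adjusted p = 0.923) and -0.25 ± 0.29 between the treated groups (-0.90 to 0.40, adjusted p = 0.643). Differences within these intervals are not shown to be absent.

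Summed stromal markers were highest in the same tumor as the PDGF receptors. The 10 fibroblast markers summed to 3087 to 3881 CPM in vehicle, 2937 to 5505 in drug-treated tumors and 2619 to 5026 in irradiated tumors, the 10 pericyte and smooth muscle markers to 359 to 411, 286 to 431 and 328 to 370 CPM, and the 8 endothelium markers to 47.7 to 59.7, 58.1 to 175 and 65.1 to 86.4 CPM. For all 3 sums the highest of the 9 values belonged to drug-treated tumor 2. The same held for Pdgfra and Pdgfrb. Single markers did not all follow, and Col1a1 and Col3a1 held most of the fibroblast sum. Col3a1, Fap, Cspg4, Kcnj8, Mcam and Emcn were highest in an irradiated tumor. Lum, Pdpn, Dpt, Notch3, Des and Tagln were highest in a vehicle tumor. The other markers of these lists were highest in a drug-treated tumor. The part of stromal or vessel content in the receptor levels was not tested.

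**Figure D2:**
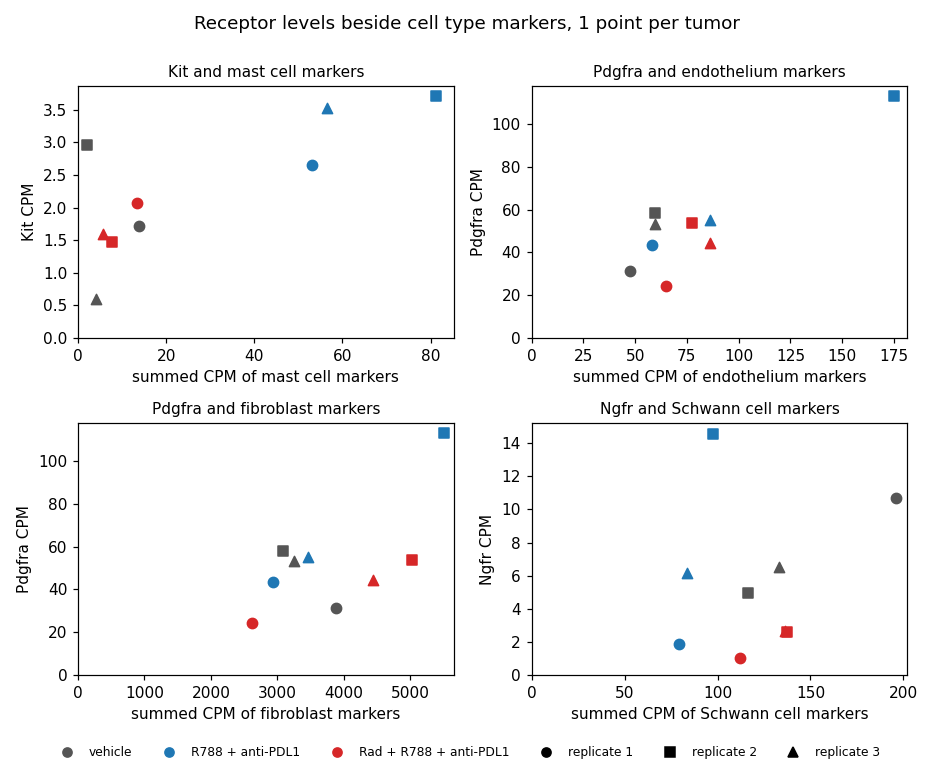
Level of Kit, Pdgfra and Ngfr (vertical axes, CPM) against the summed CPM of cell type marker lists (horizontal axes) in the 9 tumors, 1 point per tumor, colored by group and shaped by replicate. Drug-treated tumor 2 is highest on both axes for Kit with mast cell markers and for Pdgfra with endothelium and fibroblast markers. For Ngfr this tumor has the highest level, while the Schwann cell sum is highest in vehicle tumor 1.

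Igf1r, the receptor for the insulin-like growth factors (chromosome 7: 67952827-68233668, plus strand), had 21.2, 40.3 and 36.1 CPM in vehicle tumors, 37.4, 41.0 and 42.6 in drug-treated tumors and 17.8, 29.0 and 29.5 in irradiated tumors. Every irradiated tumor was below every drug-treated tumor, and both groups overlapped vehicle. Between the treated groups the log2 fold change was -0.67 ± 0.28 (95% interval -1.30 to -0.03, unadjusted p = 0.0419 and adjusted p = 0.261 by edgeR), or 0.630 times the drug-treated level. It was -0.46 without irradiated tumor 1. Against vehicle the values were 0.31 ± 0.28 for drug-treated tumors (adjusted p = 0.749) and -0.35 ± 0.28 for irradiated tumors (adjusted p = 0.554, and -0.12 without irradiated tumor 1). The 3 drug-treated tumors lay within 1.14-fold of each other, the narrowest spread of a tested member in any group.

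Over all comparisons none of the tested members passed an adjusted p of 0.05 in edgeR, and none did in DESeq2. For drug-treated tumors against vehicle, 0 of 6 were called, where 0.678% of all 15931 tested genes were (4.86% in DESeq2), 1 of 6 (Ntrk2) had an unadjusted p under 0.05 in edgeR and likewise 1 in DESeq2, against 11.7% of all genes in edgeR, and 0 of 6 had groups that did not overlap, against 30.1%. For irradiated tumors against vehicle, 0 of 6 were called against 0.0439% of all genes (3.85% in DESeq2), 1 of 6 (Ngfr, lower) had an unadjusted p under 0.05 in edgeR and 2 in DESeq2 against 13.2% in edgeR, and 1 of 6 (Ngfr) did not overlap against 20.5%. For irradiated tumors against drug-treated tumors, 0 of 6 were called against 0.00628% (5.62% in DESeq2), 2 of 6 (Ngfr and Igf1r, both lower) had an unadjusted p under 0.05 in edgeR and 2 in DESeq2 against 18.4% in edgeR, and 2 of 6 (Kit and Igf1r, both lower) did not overlap against 27.4%. Ntrk2 entered these counts only because it passed the low-count filter through the treated tumors. With 6 members these shares do not set the receptors apart from all genes.

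All 6 tested members were on the higher side in drug-treated tumors against vehicle, with a median log2 fold change of 0.44 beside -0.018 for all genes. In irradiated tumors against vehicle 1 was higher and 5 lower, with a median of -0.14 beside 0.046. Against drug-treated tumors the irradiated tumors were lower for all 6, with a median of -0.73 beside 0.040. These comparisons share tumors, so the first and the last are not separate observations. Ntrk2 is in these counts and medians only because it passed the low-count filter through the treated tumors. Its higher side against vehicle therefore adds no separate support. Ngfr, also counted as higher in drug-treated tumors against vehicle, was at 0.03. Some of these sides turned in other settings. Against vehicle, Ngfr was lower in drug-treated tumors by voom (-0.28), and without drug-treated tumor 2 Ngfr (-0.87) and Pdgfrb (-0.11) were lower. Between the treated groups, Ntrk2 (0.088) and Pdgfrb (0.047) were higher in irradiated tumors without that tumor. Drug-treated tumor 2 had the highest value of all 9 for 5 of the 6 members.

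**Figure D3:**
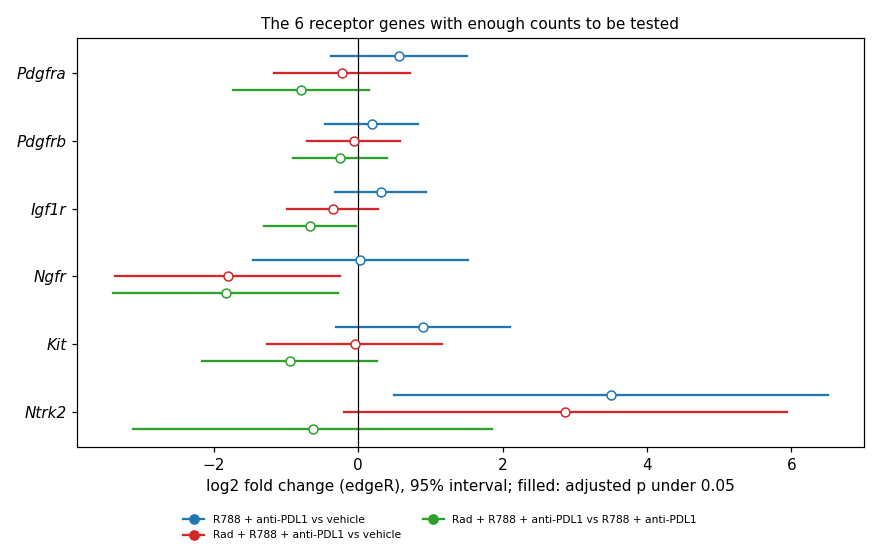
Log2 fold change with its 95% interval (horizontal axis, edgeR) of the 6 tested receptor genes in the 3 comparisons, where a filled point would mark an adjusted p under 0.05. No point is filled, the intervals of Ngfr against vehicle and against drug-treated tumors (-3.37 to -0.25 and -3.39 to -0.28) lie below 0 for the irradiated tumors, and Ntrk2 has the widest intervals.

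The genes whose log2 CPM followed each receptor most closely over the 9 tumors were taken among about 11641 genes with a mean of at least 50 counts, and the r values describe libraries that share depth, cell content and treatment. Pdgfra was most like the vascular genes Cdh5 (r = 0.99), Flt1 (0.98) and Col4a1 (0.97), where Cdh5 is the cadherin of endothelial junctions and Flt1 a VEGF receptor. Pdgfrb was most like Nup93 (0.97), Cntfr (0.96) and Ublcp1 (0.96), and Igf1r most like Gxylt1, Alpk1 and Srrm2 (0.98 each). Ngfr followed Pyroxd2 (0.98), the matrix proteoglycan gene Ogn (0.95) and Fkbp9 (0.94). Ntrk2 followed Pcbp4 (0.94), Wnt6 (0.93) and the epithelial galectin gene Lgals7 (0.93), and the closest to Kit were weaker, with Hirip3 at 0.85, Mbip at 0.83 and S1pr1 at 0.83. Without irradiated tumor 1 all 18 values stayed between 0.83 and 0.98 over 8 tumors. Among the members themselves Pdgfra and Igf1r had r = 0.82, Pdgfra and Pdgfrb 0.80 and Ngfr and Pdgfrb 0.75, while Ntrk2 had 0.015 with Ngfr and 0.11 with Pdgfra.

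Among the ligands Kitl alone was called by edgeR. Kitl, which encodes stem cell factor, the ligand of KIT (chromosome 10: 100015630-100100416, plus strand), had 7.34, 4.58 and 4.6 CPM in vehicle tumors, 15.9, 23.7 and 24.7 in drug-treated tumors and 6.64, 10.9 and 9.91 in irradiated tumors. Every drug-treated tumor was above every tumor of both other groups. Kitl rose 3.89-fold in drug-treated tumors against vehicle (log2 fold change 1.96 ± 0.32, edgeR adjusted p = 0.0383). Its call depended on single libraries. Leaving out vehicle tumor 1 kept it (adjusted p = 0.0465), and leaving out any 1 of the other 5 libraries compared lost it, with adjusted p from 0.0777 to 0.222 and log2 fold changes from 1.84 to 2.13. The irradiated tumors differed from vehicle by 0.74 ± 0.31 (adjusted p = 0.365) and from drug-treated tumors by -1.23 ± 0.31 (adjusted p = 0.193, called by DESeq2 at 0.00836).

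Of the neurotrophins, Ntf3, the ligand of TrkC, had 9, 1 and 1 counts in vehicle, 8, 15 and 7 in drug-treated tumors and 37, 42 and 30 in irradiated tumors. All irradiated tumors were above all others. The log2 fold change was 3.37 ± 0.86 against vehicle (edgeR adjusted p = 0.215, called by DESeq2). Against drug-treated tumors it was 2.33 ± 0.79 (edgeR adjusted p = 0.223). Ntf3 passed the low-count filter only through the irradiated tumors, so the DESeq2 call adds no separate support for a difference. Ntf5, which encodes neurotrophin-4 and signals through TrkB, had 3.71 ± 1.37, 3.12 ± 0.19 and 6.79 ± 1.71 CPM (n = 3 each) in vehicle, drug-treated and irradiated tumors, and the log2 fold change was 1.12 ± 0.37 between the treated groups (adjusted p = 0.223, called by DESeq2). Neither gene passed the edgeR test.

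Bdnf, the other ligand of TrkB, was at or near 0 in vehicle tumors and had counts in all treated tumors. Vehicle tumors had 2, 0 and 2 counts, drug-treated tumors 52, 11 and 70, and irradiated tumors 8, 26 and 23, so neither treated group overlapped vehicle. The gene passed the low-count filter only through the treated tumors. The summed counts were 26.6 times vehicle (95% counting interval 10.2 to 99.1) and 15.1 times (5.60 to 57.5). The edgeR log2 fold changes were 4.61 ± 1.02 (adjusted p = 0.0879) and 3.71 ± 1.01 (adjusted p = 0.224), which DESeq2 called in both comparisons. The filter drew on the same counts, so these calls add no separate support for a difference. The gene overlaps the antisense gene Gm45346 over 896 exon bases, so its counts are uncertain. Bdnf did not follow its receptor tumor by tumor, since drug-treated tumor 2 had the highest Ntrk2 and the lowest Bdnf of its group.

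Among the PDGF ligands, Pdgfc, which signals through PDGFRA, had 57.5, 33.9 and 39.2 CPM in vehicle tumors, 88.7, 89.9 and 85.6 in drug-treated tumors and 66.5, 58.9 and 67.9 in irradiated tumors. The 3 groups did not overlap at all, with drug-treated tumors highest and vehicle lowest, and the log2 fold change of drug-treated tumors against vehicle was 1.02 ± 0.22 (edgeR adjusted p = 0.0805, called by DESeq2). For Pdgfa the group levels were 21.0 ± 7.46, 18.9 ± 6.89 and 35.1 ± 16.6 CPM, for Pdgfb 6.12 ± 2.93, 9.84 ± 2.78 and 9.49 ± 1.23 CPM, and for Pdgfd, the least abundant, 0.308 ± 0.202, 0.749 ± 0.351 and 0.569 ± 0.169 CPM (n = 3 each, in the order vehicle, drug-treated tumors, irradiated tumors). Over the 8 genes of the KIT and PDGF list, 7 were higher and 1 lower in drug-treated tumors against vehicle. Of all 15931 tested genes, 7703 were higher. The median log2 fold change was 1.25 beside -0.018 for all genes. Flt3, Pdgfrl and Pdgfd had 12 counts or fewer in each vehicle tumor. Kitl alone was called by edgeR, where 0.678% of all genes were called.

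**Figure D4:**
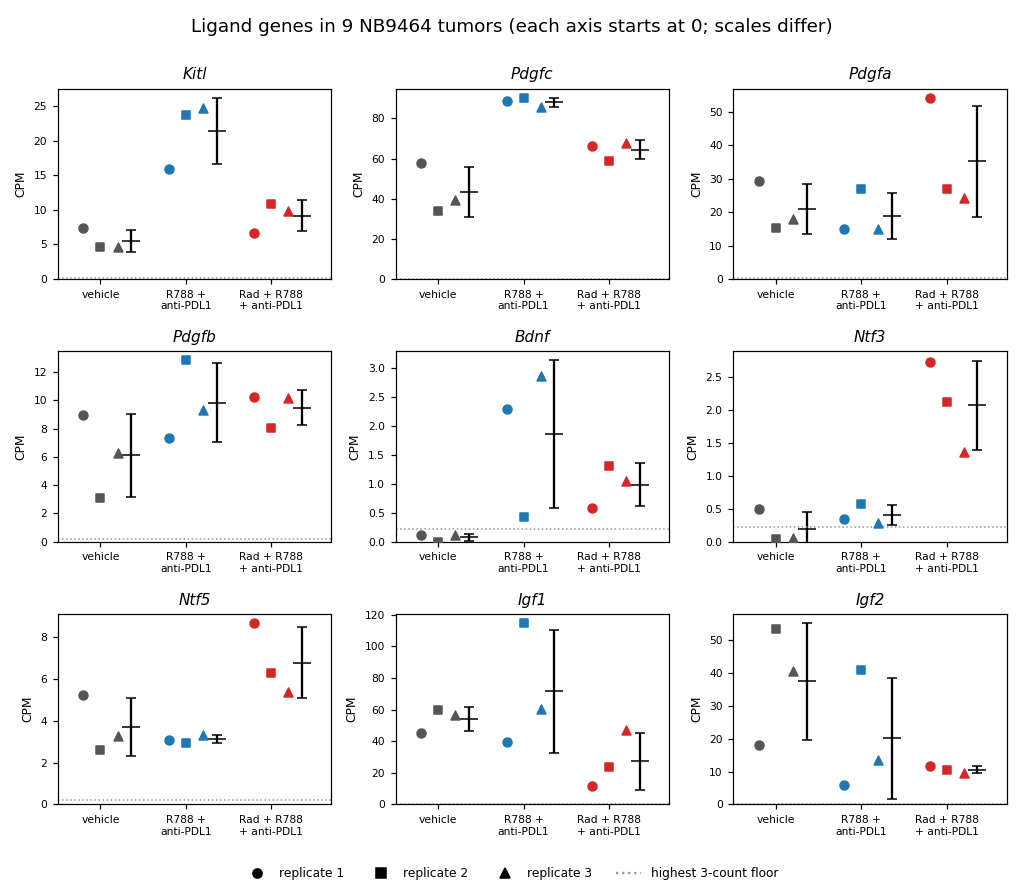
Level of 9 ligand genes (CPM, linear axes from 0, a different scale in each panel) in the 9 tumors by group, with 1 symbol per replicate, mean and SD as a bar at the right of each group and a dotted line at 0.221 CPM. Kitl and Pdgfc are highest in all drug-treated tumors, and Ntf3 and Ntf5 in all irradiated tumors.

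In the IGF list, Irs2, the docking protein that carries signals from the insulin and IGF1 receptors, fell in drug-treated tumors. It had 168, 94.0 and 118 CPM in vehicle, 49.8, 28.7 and 45.6 in drug-treated tumors and 58.0, 75.2 and 71.3 in irradiated tumors, and both treated groups were entirely below vehicle. The log2 fold change was -1.61 ± 0.28 for drug-treated tumors (edgeR adjusted p = 0.0412) and -0.89 ± 0.28 for irradiated tumors (adjusted p = 0.273). Leaving out any 1 of the 6 libraries lost the first call, with adjusted p from 0.0886 to 0.222. The count of Irs2 is uncertain over 162 exon bases shared with a transcript of the opposite strand. Igfbp5, a secreted IGF binding protein, had 1599 ± 381, 282 ± 110 and 455 ± 283 CPM in vehicle, drug-treated and irradiated tumors (log2 fold change -2.51 ± 0.55 for drug-treated tumors against vehicle, adjusted p = 0.0879, called by DESeq2 there and for irradiated tumors against vehicle), and Insr, the insulin receptor, had 246 ± 22.9, 152 ± 41.7 and 94.4 ± 37.3 CPM (-1.38 ± 0.33 for irradiated tumors against vehicle, adjusted p = 0.183, called by DESeq2). Of the ligands, Igf1 had 53.9 ± 7.67, 71.6 ± 38.9 and 27.3 ± 18.1 CPM and Igf2 37.5 ± 17.9, 20.2 ± 18.5 and 10.6 ± 1.08 CPM, with no edgeR call in any comparison. In the whole list 7 of 13 tested genes were higher and 6 lower in drug-treated tumors against vehicle, and 4 higher and 9 lower in irradiated tumors against vehicle. Insrr, which passed the low-count filter only through drug-treated tumors, is counted as higher in both.

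Insrr, the orphan relative of the insulin and IGF1 receptors, had 0 counts in all 3 vehicle libraries, 14, 91 and 41 in drug-treated tumors and 0, 1 and 2 in irradiated tumors. It passed the low-count filter only through the drug-treated group, so no test is given for it. The counts came mostly from drug-treated tumors 2 and 3, which also held most of the Ntrk2 counts.

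Ligands and co-receptors of Ret and Alk were detected in part. Gdnf, the ligand of the RET and GFRA1 complex, had 10.8 ± 0.656, 7.75 ± 0.595 and 7.5 ± 3.11 CPM in vehicle, drug-treated and irradiated tumors, and Gfra1, its binding subunit, had 35.7 ± 1.51, 35.1 ± 10.3 and 47.7 ± 23.1 CPM, although Ret itself was at the detection limit. Artn, another ligand of the family, had 2.42 ± 0.432, 0.535 ± 0.241 and 0.903 ± 0.603 CPM (log2 fold change -2.16 ± 0.66 for drug-treated tumors against vehicle, edgeR adjusted p = 0.219, called by DESeq2), and its own subunit Gfra3 had 0 counts in all libraries. Nrtn reached 114 CPM in irradiated tumor 1 and 8.07 and 9.45 in the other irradiated tumors. Of the ALK ligands, Alkal1 had 0 counts throughout and Alkal2 had 4, 0 and 3 counts in the irradiated tumors and 0 elsewhere, while Ptn, a heparin-binding growth factor also proposed as an ALK ligand, had 488 ± 189, 331 ± 128 and 649 ± 156 CPM. Ltk, the closest relative of Alk, had 12.8 ± 2.09, 7.30 ± 1.58 and 10.5 ± 0.971 CPM (-0.82 ± 0.26 for drug-treated tumors against vehicle, adjusted p = 0.238, called by DESeq2).

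Over the 7 lists of ligands, co-receptors, adaptors and downstream genes, 78 of 93 genes were tested. In drug-treated tumors against vehicle edgeR called 2 higher (Kitl and Spry1) and 1 lower (Irs2), where 0.678% of all genes were called, with 19 at an unadjusted p under 0.05 (11.7% of all genes), 28 without overlap (30.1%) and a median log2 fold change of 0.089, and DESeq2 called 16 (4.86%). In irradiated tumors against vehicle it called 0 (0.0439% of all genes), with 24 at an unadjusted p under 0.05 (13.2%), 24 without overlap (20.5%) and a median of 0.15, and DESeq2 called 7 (3.85%). In irradiated tumors against drug-treated tumors it called 0 (0.00628% of all genes), with 19 at an unadjusted p under 0.05 (18.4%), 23 without overlap (27.4%) and a median of -0.049, and DESeq2 called 8 (5.62%). Bdnf and Insrr were among the 16 DESeq2 calls, and Bdnf and Ntf3 among the 7. These genes passed the low-count filter only through treated tumors. Their part in the calls, unadjusted p-values and counts without overlap adds no separate support for a difference. Of the 22 adaptors and effectors downstream of the receptors, 19 were tested and edgeR called 0 in each comparison, with 1, 2 and 2 at an unadjusted p under 0.05 and 0, 0 and 1 called by DESeq2. Their lowest edgeR adjusted p was 0.222, for Dok4, with 6.06 ± 1.10, 5.77 ± 2.02 and 12.3 ± 1.56 CPM.

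Spry1, a feedback inhibitor that receptor tyrosine kinase signaling induces, was the third gene called. It had 4.42, 2.51 and 3.45 CPM in vehicle tumors, 16.5, 45.7 and 23.5 in drug-treated tumors and 24.4, 18.3 and 15.9 in irradiated tumors, with both treated groups entirely above vehicle. It rose 8.26-fold in drug-treated tumors (log2 fold change 3.05 ± 0.42, edgeR adjusted p = 0.0375), and in irradiated tumors the log2 fold change was 2.50 ± 0.41 (adjusted p = 0.0901, called by DESeq2). Leaving out vehicle tumor 1 or drug-treated tumor 2 kept the first call, and leaving out any 1 of the other 4 libraries lost it, with adjusted p from 0.0707 to 0.216. Its 710 exon bases shared with Gm42922 on the opposite strand make the count uncertain. The other MAPK feedback genes lay on both sides of 0. Against vehicle in drug-treated tumors, the inhibitor genes Spry2 (1.29 ± 0.41, adjusted p = 0.241), Dusp6 (1.28 ± 0.35, adjusted p = 0.159) and Dusp4 (1.48 ± 0.45, adjusted p = 0.208) had values above 0. The inhibitor genes Dusp5 (-1.07 ± 0.33, adjusted p = 0.216), Spred2 (-0.43) and Spred3 (-0.36) had values below 0, as did the immediate early genes Fos (-1.30 ± 0.29, adjusted p = 0.0932), Egr1 (-1.03 ± 0.31, adjusted p = 0.214) and Ier3 (-1.74 ± 0.50, adjusted p = 0.18). DESeq2 called 7 of the 17 in that comparison, where it called 4.86% of all genes. The 7 were Spry1, Spry2, Dusp4, Dusp5, Dusp6, Fos and Ier3. Of the 17 genes 10 were higher and 7 lower in that comparison, with a median of 0.20, and 8 higher and 9 lower in irradiated tumors against vehicle, with a median of -0.0070.

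**Figure D5:**
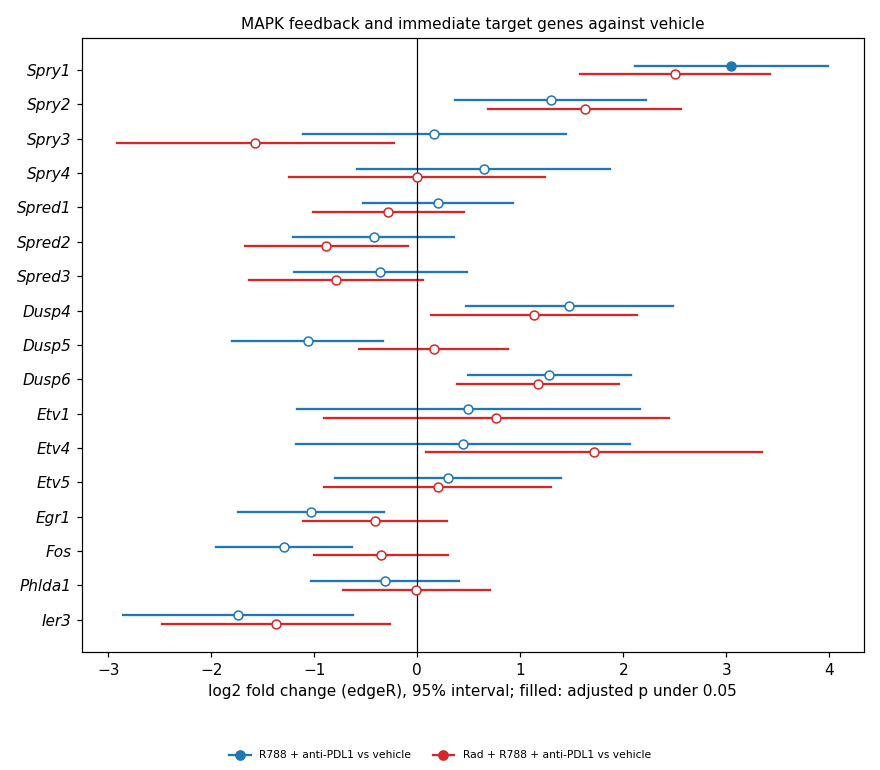
Log2 fold change against vehicle with its 95% interval (horizontal axis, edgeR) of 17 feedback and immediate target genes of the MAPK pathway in drug-treated and irradiated tumors. The filled point of Spry1 in drug-treated tumors marks the only adjusted p under 0.05 (0.0375), and 10 of the 17 points lie above 0 and 7 below in that comparison.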

How the data were processed

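Bulk RNA-seq of 9 whole tumors was analysed. The authors aligned reads to mm10 with STAR 2.6.1d and quantified them with Salmon 1.4.0 in bcbio, per the labels and the study's methods. The deposited table holds estimated counts per symbol as whole numbers, without normalization. The labels name macrophages in the extraction text and whole tumor as the tissue, which was used here. Members and gene lists were chosen with earlier results of these data known. Groups came from the treatment labels. Counts were scaled by TMM and tested in edgeR 4.0.16 (R 4.3.3) by the quasi-likelihood test, robust, over all 9 libraries, after filterByExpr with a minimum count of 10. P-values were adjusted by Benjamini-Hochberg over 15931 genes, with a threshold of 0.05. DESeq2 1.42.0, limma 3.58.1 (voom, with and without quality weights), other scalings and filters, the 6 libraries compared, a replicate block and leave-one-out were alternatives. Two-sided tests were used throughout. Positions and lengths came from GENCODE M21. Low counts were compared by exact binomial intervals at 95%. Named were all members, the 3 genes most alike to each tested member, each called gene of a list with up to 3 of lowest p per comparison, and ligands of members. Gfra1, Gfra3, Dusp4, Egr1, Ier3, Spred2, Spred3 and the cell type markers were outside this rule and named after their values were seen. Some results are not reported here.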

Additional observations from a re-analysis of the deposited data

How the results depend on the processing

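DESeq2 and voom with quality weights moved the calls most, and plain voom called 111, 12 and 8 genes and 4, 0 and 0 partner genes in the order of comparisons given next. DESeq2 called 770, 611 and 822 of all genes for drug-treated (R788 + anti-PDL1) against vehicle, irradiated (Rad + R788 + anti-PDL1) against vehicle, and irradiated against drug-treated tumors, where edgeR called 108, 7 and 1, and among the partner genes 16, 7 and 8 against 3, 0 and 0. Voom with quality weights called 4835, 1993 and 3080 genes, 36, 24 and 25 partner genes, and of the members 2 (Kit and Ntrk2), 0 and 1 (Igf1r). Bdnf and Insrr were among the partner genes called in the first comparison by both DESeq2 and voom with quality weights. Like Ntrk2, they passed the low-count filter only through treated tumors. Without a low-count filter 5 partner genes were called in the first comparison and 1 in the second, with library totals alone 0 in the first, and with only the 6 libraries compared 10 in the first. Leaving out 1 library gave 0 to 3 partner genes in the first comparison and 0 to 1 in the third. Library totals alone moved the median log2 fold change of all genes to 0.13 in the first and -0.14 in the third comparison, and upper-quartile scaling to 0.11 in the second.

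Of 283 member fold changes recomputed, 260 kept their direction and side of the threshold, and 20 changed sign, with a lowest adjusted p of 0.328 among them. For drug-treated against vehicle tumors, Ngfr was -0.28 by voom and -0.25 with quality weights, and without 1 library it ran from -0.87 to 0.48 and Pdgfrb from -0.11 to 0.36. For irradiated against vehicle tumors, Kit was 0.15 by voom, 0.65 with quality weights and 0.014 with upper-quartile scaling, Pdgfrb was 0.24 with quality weights, and without 1 library Kit ran from -0.46 to 0.55, Pdgfrb from -0.21 to 0.19 and Pdgfra from -0.48 to 0.074. Between the treated groups Pdgfrb was 0.14 with quality weights, and without 1 library ran from -0.43 to 0.047 and Ntrk2 from -2.10 to 0.088. The cause of these changes was not tested.

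The replicate numbers were not taken as pairs, since same-numbered tumors correlated at -0.046 to -0.038, 0.054 to 0.23 and -0.0089 to 0.056 in the 3 comparisons. With the number as a block edgeR called 0, 3 and 0 of all genes and 0 partner genes in the first comparison, and the sign turned for Ngfr in drug-treated against vehicle tumors (-0.36) and for Kit in irradiated against vehicle tumors (0.10).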
